A study of Mus musculus with 6 samples.

Results

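The granzyme cluster on mouse chromosome 14 holds Gzmb, Gzmc, Gzmd, Gzme, Gzmf, Gzmg and Gzmn, which encode serine proteases of lymphocyte granules. These 7 genes, of 23227 in the exonic tables and 23231 in the intronic tables, were chosen by name for their group means in all 4 deposited comparisons. Their levels and ratios are therefore given here as a description, with no test. The cells were not lymphocytes: they came from immortalized, monoclonal lines of murine mesenchymal stem cells (MSCs), named fibroblasts in other label fields.

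The 6 groups were Dicer knockout (KO) MSCs, Dicer wild-type (WT) MSCs, and Dicer WT cells transfected for over-expression of the transcription factor Pbx3, Sox9 or Tead4 or with the vector alone. All were cultured in Alpha-MEM with fetal bovine serum and penicillin/streptomycin and harvested subconfluent. Dicer cuts microRNA precursors to their mature form, so Dicer KO cells lack the usual route to mature microRNAs. Each Dicer genotype was studied in a single clone, and effects of the clone and of the genotype cannot be told apart. Total RNA was depleted of ribosomal RNA and read as strand-specific, single-end libraries, and reads in exons and in introns of each gene were tabulated apart. The labels list 1 sample per group, but the deposited group means are means of 2 libraries each, and the whole reads of both libraries were recovered from them. Whether these 2 libraries are separate cultures is not given in the sources used here, so the spread between them may be technical. Exonic reads per library ranged from 6130267 to 23501655 and intronic reads from 3156973 to 10205497.

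The libraries of each group differed from each other in a direction that all 6 groups shared. Over genes outside the cluster, the difference in each group correlated with the mean of the other groups. Pearson r was 0.58 to 0.83 in exonic reads and 0.48 to 0.75 in intronic reads. The sides were set from these same data, so these values are no test. Ctgf, which encodes connective tissue growth factor, was higher in every group in the exonic library on 1 side of this direction. The gap was 0.59 to 3.58 on the log2 scale, and the libraries are called Ctgf-high and Ctgf-low here. Granzyme levels moved with this difference in several groups, so pairs of values are given as Ctgf-high library first, then Ctgf-low. Pairs of intronic values follow the same order. What separates the libraries was not tested.

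Granzymes are made as inactive precursors, are trimmed by the dipeptidyl peptidase cathepsin C, and are stored on the proteoglycan serglycin in the granules of cytotoxic T cells and natural killer (NK) cells. Perforin lets them into target cells, where granzyme B cuts after aspartate and sets off caspases, and serpins such as Serpinb9 protect the cells that make it. Granzymes C to G are rodent duplicates, known from activated lymphocytes and from the granular NK cells of the pregnant mouse uterus, while Gzmn is known from the testis. The genes arose by duplication, and reads from near-identical stretches can be shared between them.

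That shared origin can be read in the stretch just upstream of each start. The following 100 bases end 11 to 36 bases before the annotated start of the 5 duplicates Gzmc to Gzmg, from RefSeq on GRCm38.p6, minus strand, and capitals mark the place of the cAMP response element (CRE) letters TGACGTC. They lie at chr14:56234668-56234767 (Gzmc), chr14:56132608-56132707 (Gzmd), chr14:56120641-56120740 (Gzme), chr14:56211443-56211542 (Gzmf) and chr14:56159610-56159709 (Gzmg).
Gzmc: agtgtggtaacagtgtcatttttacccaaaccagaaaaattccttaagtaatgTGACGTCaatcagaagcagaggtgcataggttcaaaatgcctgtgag
Gzmd: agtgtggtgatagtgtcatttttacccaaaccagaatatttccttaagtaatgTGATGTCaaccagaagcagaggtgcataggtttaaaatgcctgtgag
Gzme: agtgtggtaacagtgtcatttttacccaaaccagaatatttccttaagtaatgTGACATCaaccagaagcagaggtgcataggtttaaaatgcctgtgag
Gzmf: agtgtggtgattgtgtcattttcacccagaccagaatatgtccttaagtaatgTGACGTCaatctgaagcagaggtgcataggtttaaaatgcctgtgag
Gzmg: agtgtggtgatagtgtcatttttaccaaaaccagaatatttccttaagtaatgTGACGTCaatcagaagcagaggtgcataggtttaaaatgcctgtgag

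Over the full promoter window of 250 bases before to 50 after the start, these 5 promoters were 86.1% to 94.0% identical in pairs, with Gzmd and Gzme the closest pair. Their longest run in common was 20 bases. The promoters of Gzmb and Gzmn were 57.7% to 63.2% identical to the others and to each other. The CRE letters were whole in Gzmc, Gzmf and Gzmg. Gzmd differed from them by C4T and Gzme by G5A, counted from 1 at the first T of the capitals. Gzmc, with whole CRE letters, was among the members with the most exonic reads, and Gzmf and Gzmg, with the same letters, were among those with the fewest. Gzme, with changed letters, had the most exonic reads. Whether these letters bear on the levels was not tested.

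The letters of 8 motifs were searched on both strands of the 7 promoters and of all 32851 promoters of the same length. The CRE letters were in 4 of the 7, Gzmb included (after its start), and in 3.21% of all promoters. The RUNX letters TGTGGT were in 6 of the 7, all but Gzmn, and in 16.8% of all promoters. For the over-expressed factors, the SOX letters ACAAAG were in Gzmc, Gzmd, Gzme and Gzmn (18.7% of all promoters). In Gzmc, Gzmd and Gzme they lay after the start, and in Gzmn before it. The PBX letters TGATTNA were in Gzmc and Gzmg (10.3% of all promoters), there overlapping the CRE letters. The TEAD letters CATTCC were in 0 of the 7 windows and in 14.7% of all promoters. The AP-1 letters TGANTCA were in Gzmb (7.81% of all promoters) and the TATA letters TATAAA in Gzmn (13.6%). The T-box letters AGGTGTG were in Gzmc and Gzme (5.84%), at or just after the start. A match is a string of letters and not a bound site, and the 5 related promoters are not independent of each other.

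The transcripts of the cluster differ in how well reads can tell them apart. In GENCODE vM21 transcripts, Gzmd and Gzme were 94.8% identical, Gzmd and Gzmg 90.1%, and Gzme and Gzmg 90.3%, while Gzmb was 68.2% to 76.2% identical to each of the others. Of all 50-base windows of a transcript, 21.7% in Gzmd, 20.6% in Gzme and 19.8% in Gzmg recurred in another member. This share was 7.36% in Gzmf, 5.74% in Gzmn and 4.14% in Gzmc, and 0 of 1387 windows of Gzmb recurred. The read length and the handling of reads that match several genes were not given in the sources used here, so the values of Gzmd, Gzme and Gzmg in particular are uncertain against each other.

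Exonic levels set all 12 libraries on one scale, reads per 1000000 exonic gene reads (RPM), and span 3 tiers within the cluster. Gzme and Gzmc carried most of the reads, Gzmb and Gzmd were intermediate, and Gzmg, Gzmn and Gzmf were at or under about 1 RPM in every library. The upper 2 tiers were not clear in Sox9 cells, with 25 reads of Gzmb and 27 of Gzme, or in Tead4 cells, with 33 and 45. In Pbx3 cells no member had more than 8 reads. Per kilobase of transcript, mean levels in Dicer KO cells were 22.8 RPM for Gzme, 13.8 for Gzmc, 3.66 for Gzmb and 2.16 for Gzmd. In Dicer WT cells they were 15.9 RPM per kilobase for Gzme, 10.9 for Gzmc, 5.19 for Gzmd and 1.45 for Gzmb, so Gzmb and Gzmd stood in the opposite order. In vector cells Gzmc was highest at 16.5 RPM per kilobase, with Gzme at 13.1, Gzmd at 2.29 and Gzmb at 2.26.

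Gzme, whose protein is a rodent granzyme of little known substrate range, had the highest mean level over all libraries. It was at 11.9 and 29.8 RPM in Dicer KO cells and at 13.8 and 15.3 RPM in Dicer WT cells. It was at 0.369 and 0.427 RPM in Pbx3 cells, 1.47 and 2.32 RPM in Sox9 cells and 3.31 and 1.04 RPM in Tead4 cells, against 6.76 and 17.3 RPM in vector cells. The Dicer KO libraries lay on both sides of the WT libraries, and all 6 factor libraries lay below both vector libraries. By mean level the order was Dicer KO, Dicer WT, vector, Tead4, Sox9 and Pbx3. Neighbours overlapped in this order except vector against Tead4 and Sox9 against Pbx3.

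Gzmc encodes a protease known to kill target cells without caspases. It was at 4.30 and 20.3 RPM in Dicer KO cells and at 5.90 and 13.5 RPM in Dicer WT cells. It was at 0.462 and 0 RPM in Pbx3 cells, 1.79 and 3.73 RPM in Sox9 cells and 4.96 and 2.54 RPM in Tead4 cells, against 6.29 and 23.2 RPM in vector cells. The vector mean was the highest of the 6 groups, and the vector, Dicer KO and Dicer WT libraries overlapped one another. All 6 factor libraries again lay below both vector libraries.

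Gzmb encodes granzyme B, the best known caspase-activating granzyme. It was at 3.06 and 7.44 RPM in Dicer KO cells and at 1.21 and 2.97 RPM in Dicer WT cells, so both KO libraries were above both WT libraries, the closest pair by a narrow margin. It was at 0 and 0.107 RPM in Pbx3 cells, 1.14 and 2.32 RPM in Sox9 cells and 1.65 and 1.73 RPM in Tead4 cells, against 1.86 and 4.63 RPM in vector cells. Sox9 libraries overlapped the vector libraries for Gzmb, and Tead4 libraries lay just under them. In all 6 groups Gzmb was higher in the Ctgf-low library.

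Gzmd was the 1 member with both Dicer KO libraries below both WT libraries. It was at 1.28 and 2.90 RPM in Dicer KO cells and at 6.33 and 3.67 RPM in Dicer WT cells. It was at 0.185 and 0.213 RPM in Pbx3 cells, 0.653 and 0.515 RPM in Sox9 cells and 1.20 and 0.461 RPM in Tead4 cells, against 1.86 and 2.54 RPM in vector cells. Dicer WT stood above every other group, and the untransfected WT and the vector libraries, both of Dicer WT cells, did not overlap. For its close relative Gzme the Dicer KO libraries lay on both sides of the WT libraries. Reads may be shared between Gzmd and Gzme, so their values are uncertain against each other.

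The 3 remaining members rested on few reads. Gzmg had 12 and 18 reads in Dicer KO cells, 15 and 19 in Dicer WT cells, 1 read in each of the Pbx3, Sox9 and Tead4 groups, and 3 and 4 reads in vector cells. Gzmn had 4 and 21 reads in Dicer KO cells and 15 and 7 in Dicer WT cells, and between 0 and 4 reads in each of the other groups. Gzmf had 1 read in Dicer KO cells, 2 in Dicer WT cells, 0 in Pbx3, Sox9 and Tead4 cells and 1 in vector cells. A count of 0 allows a Gzmf level of up to 0.148 RPM in Pbx3, 0.216 RPM in Sox9 and 0.153 RPM in Tead4 cells, by 3 reads over the group. These floors and the intervals below cover counting error only.

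**Figure D1:**
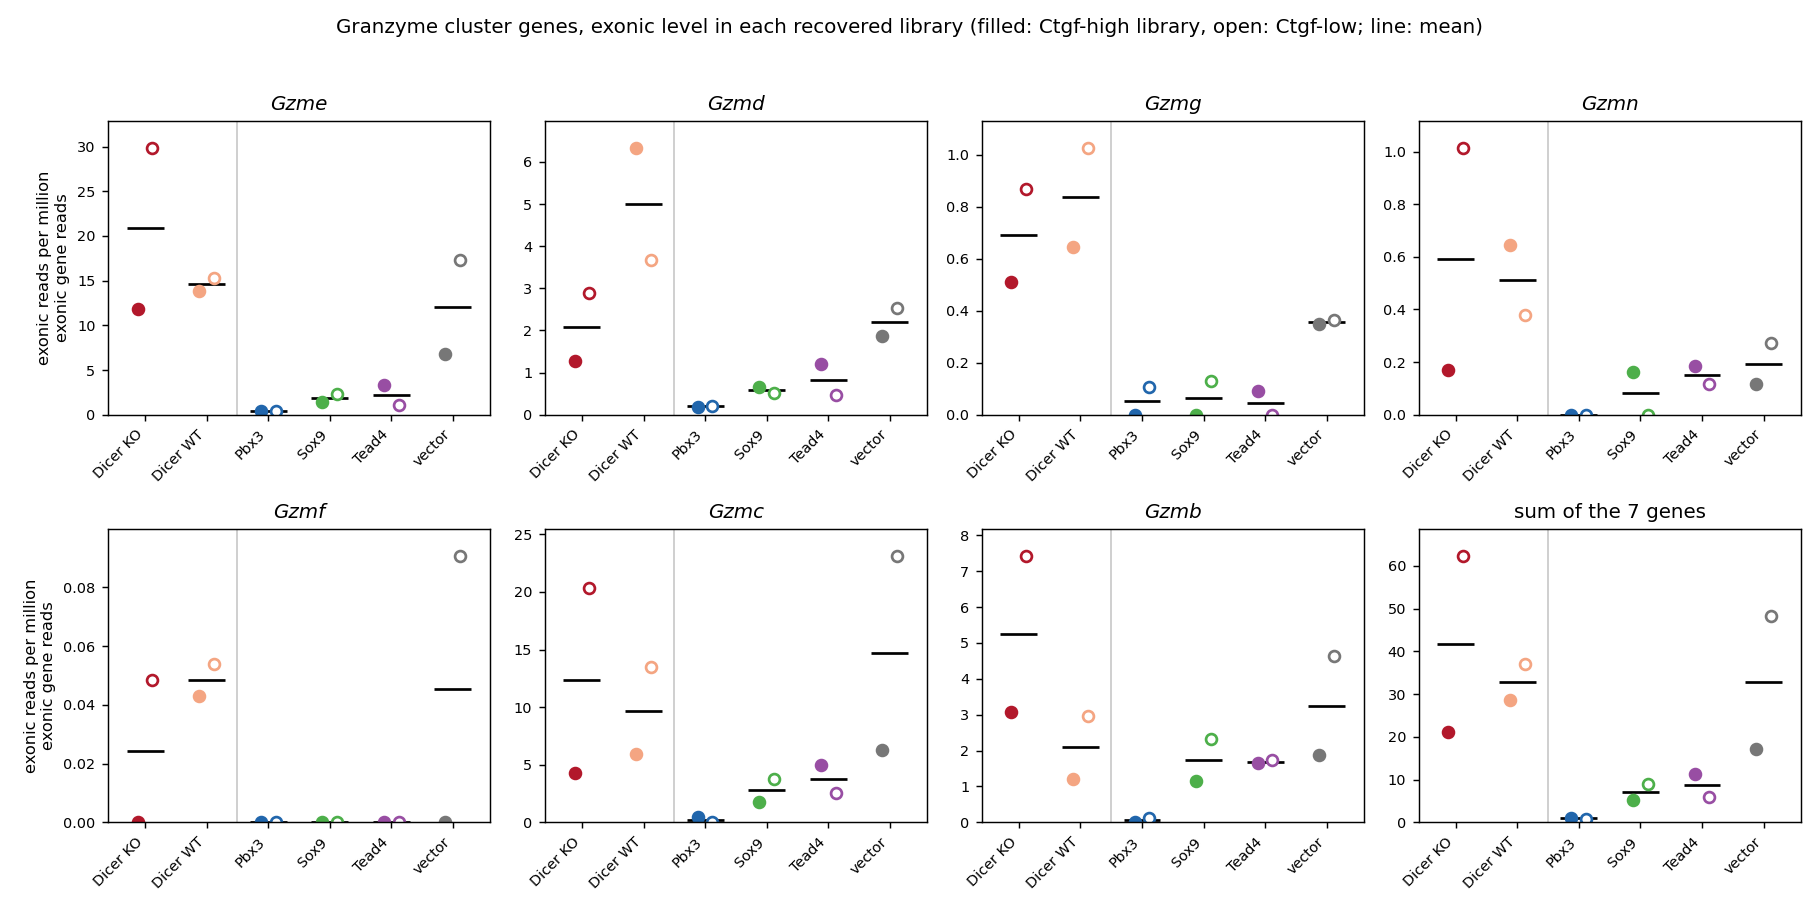
Exonic level of each granzyme gene and of their sum, in RPM, in every recovered library of the 6 groups; filled points are Ctgf-high libraries, open points Ctgf-low libraries and lines the mean of 2. Each panel has its own linear axis from 0. The summed level was 0.853 to 1.02 in Pbx3 cells and 17.2 to 48.3 in vector cells, and the Dicer KO libraries lay on both sides of the WT libraries.

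Pbx3, a TALE homeodomain factor, was compared with the vector to ask what its over-expression changes. The cluster as a whole had 19 exonic reads in Pbx3 cells, against 680 in vector cells at near-equal depth. Its summed level was 1.02 and 0.853 RPM in Pbx3 cells, against 17.2 and 48.3 RPM in vector cells. At least 2-fold lower in Pbx3 cells were 6 of the 7 genes, all but Gzmf, where the background was 2.97% of all genes with any read. In the same 6 genes both Pbx3 libraries were below both vector libraries, where the background was 12.3%. For Gzmn this rested on 0 reads in Pbx3 cells against 4 in vector cells, and the counting interval for the fold reached down to 0.67. For Gzmg it rested on 1 read against 7, with a counting interval of 0.919 to 322 for the fold. Both intervals include no change. With a pseudocount of 5 in place of 1 the count was 4. Because these ratios chose the genes, nothing is read from the difference to the background. The same holds for the other comparisons below. Only 2 of the 7, Gzmc and Gzme, had a mean of at least 50 normalised counts, the minimum for tests across genes.

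Gzmc had 5 reads in Pbx3 cells against 309 in vector cells, 63.1-fold lower with a counting interval of 26.8 to 196. Gzme had 8 reads in Pbx3 cells against 248 in vector cells, 31.7-fold lower (15.8 to 74.2). All 5 Pbx3 reads of Gzmc were in the Ctgf-high library. The vector reads were unequal too, with 54 and 255 for Gzmc and 58 and 190 for Gzme. By ratio of normalised means Gzmc was 60.8-fold lower with all libraries, but 27.1-fold lower without the Ctgf-low vector library and 30.4-fold lower without the Ctgf-low Pbx3 library. For Gzme the same ratio was 29.8-fold lower with all libraries and 17.4-fold lower without the Ctgf-low vector library. Gzmb had 1 read in Pbx3 cells and 67 in vector cells, a ratio of 0.0146 (0.000364 to 0.0842). Gzmd had 4 reads in Pbx3 cells and 44 in vector cells, 11.2-fold lower (4.09 to 43.1). On the log2 scale with a pseudocount of 1, which understates low genes, the ratios were -5.43 for Gzmc, -4.58 for Gzme, -4.43 for Gzmb and -2.93 for Gzmd. The median over the 7 genes was -2.93, beside 0.01 over all genes with reads.

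Sox9, an SRY-related factor of cartilage formation, and Tead4, the DNA-binding partner of the Hippo coactivator Yap, were set against the same 2 vector libraries. The 3 factor comparisons share these libraries, so what they have in common cannot be counted as separate evidence. The summed level was 5.22 and 9.01 RPM in Sox9 cells, against 17.2 and 48.3 RPM in vector cells. It was 11.4 and 5.88 RPM in Tead4 cells, against the same vector values. Both factor groups lay below the vector and above Pbx3, also among libraries of the same Ctgf side. In Tead4 cells, unlike vector and Sox9 cells, the higher level was in the Ctgf-high library.

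At least 2-fold lower in Sox9 cells were 4 of the 7 genes, namely Gzmc, Gzmd, Gzme and Gzmg (background 3.51%). The same 4 had both Sox9 libraries below both vector libraries (background 20.4%). Gzmg rested on 1 read in Sox9 cells against 7, with a counting interval of 0.642 to 225 for the fold. With a pseudocount of 5 the 2-fold count was 3. Gzme had 27 reads in Sox9 cells against 248 in vector cells, 6.56-fold lower with a counting interval of 4.40 to 10.2. Gzmc had 40 reads in Sox9 cells against 309 in vector cells, 5.52-fold lower (3.96 to 7.87). Without the Ctgf-low vector library the ratio of normalised means was 3.71-fold lower for Gzme and 2.36-fold lower for Gzmc. Gzmb, with 25 reads in Sox9 cells and 67 in vector cells, had a log2 ratio of -0.86 and libraries that overlapped. The median log2 ratio of the 7 genes was -1.36, beside -0.01 over all genes with reads.

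In Tead4 cells 4 genes, Gzmc, Gzmd, Gzme and Gzmg, were at least 2-fold lower (background 5.64%). With Gzmb added, 5 genes had both Tead4 libraries below both vector libraries (background 22.1%). Gzmg again rested on 1 read against 7, with a counting interval of 0.902 to 316 for the fold. With a pseudocount of 5 the 2-fold count was 3 here too. Gzme had 45 reads in Tead4 cells against 248 in vector cells, 5.52-fold lower with a counting interval of 4.01 to 7.77. Gzmc had 76 reads in Tead4 cells against 309 in vector cells, 4.08-fold lower (3.16 to 5.31). Without the Ctgf-low vector library the ratio of normalised means was only 3.20-fold lower for Gzme and 1.73-fold lower for Gzmc. Among Ctgf-high libraries alone Gzmc was at 4.96 RPM in Tead4 cells and 6.29 RPM in vector cells. Among Ctgf-low libraries it was at 2.54 RPM in Tead4 cells and 23.2 RPM in vector cells. Gzmb had 33 reads in Tead4 cells and 67 in vector cells and a log2 ratio of -0.90. The median log2 ratio of the 7 genes was -1.31, beside -0.01 over all genes with reads. In these bulk samples, fewer cells that express the genes and less RNA per cell cannot be told apart.

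**Figure D2:**
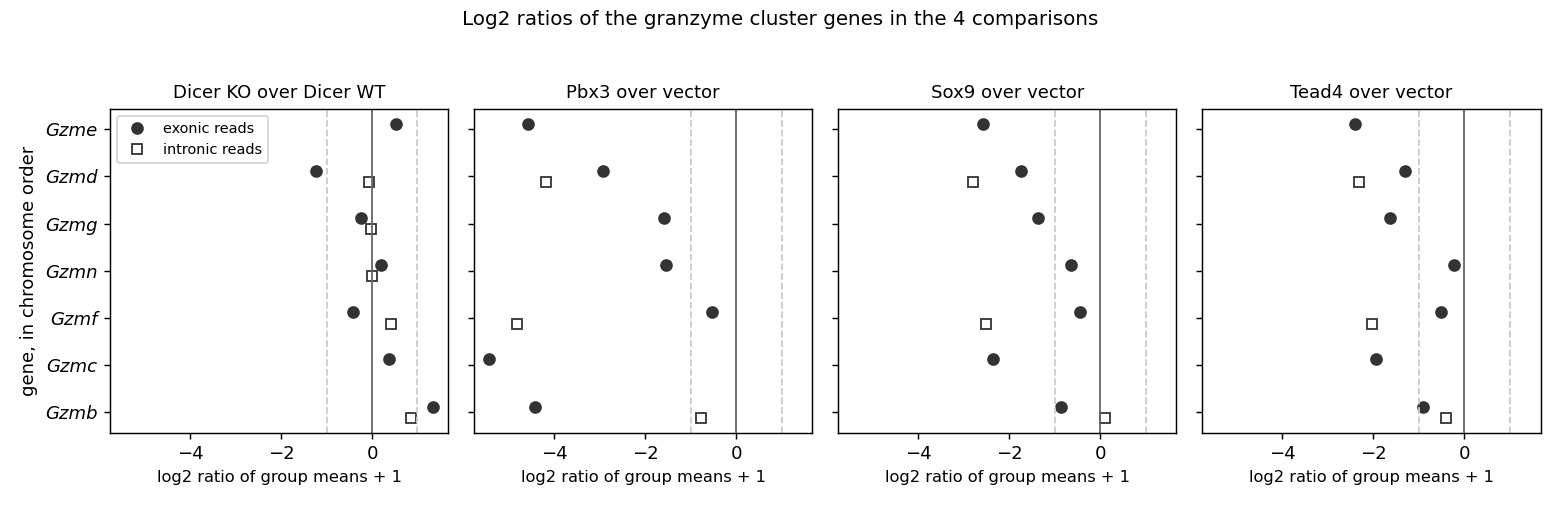
Log2 ratio of group means plus 1 for each granzyme gene in the 4 comparisons, for exonic reads (filled circles) and intronic reads (open squares, where there were any); dashed lines mark 2-fold. Exonic ratios over the vector ran from -5.43 for Gzmc in Pbx3 cells to -0.23 for Gzmn in Tead4 cells, the latter from 3 reads against 4. In Dicer KO over Dicer WT they ran from -1.24 for Gzmd to 1.34 for Gzmb.

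Dicer KO against Dicer WT asked what loss of Dicer changes, and here the cluster did not move in one direction. Gzmb was higher and Gzmd lower in Dicer KO cells by at least 2-fold, where the background was 7.65% higher and 11.9% lower. The same 2 genes were those whose libraries did not overlap, against a background of 27.2% higher and 29% lower. These counts were near or under the background shares, and nothing is read from them about the cluster. Gzmb had 226 reads in Dicer KO cells and 83 in Dicer WT cells, a ratio of 2.59 with a counting interval of 2.01 to 3.37. Gzmd had 90 reads in Dicer KO cells and 215 in Dicer WT cells, 2.51-fold lower (1.95 to 3.25). With 1 library left out the ratio of normalised means ran from 1.51 to 4.26 for Gzmb and from 0.257 to 0.591 for Gzmd. In pooled reads the shares of the cluster's own reads differed. Gzmd made up 5.03% in Dicer KO cells (Wilson interval 4.11 to 6.14) and 15.9% in Dicer WT cells (14.1 to 18.0). Gzmb made up 12.6% (11.2 to 14.2) and 6.16% (4.99 to 7.57). These intervals do not cover the spread between libraries. By library, Gzmd had 30 of 498 and 60 of 1293 cluster reads in Dicer KO cells. In Dicer WT cells it had 147 of 664 and 68 of 684. Gzmb had 72 of 498 and 154 of 1293 in Dicer KO cells. In Dicer WT cells Gzmb had 28 of 664 and 55 of 684. Gzme and Gzmc, with log2 ratios of 0.53 and 0.37, overlapped between the genotypes.

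The sum of the cluster turned with the side on which libraries were compared. Among Ctgf-high libraries it was 21.2 RPM in Dicer KO cells and 28.6 RPM in Dicer WT cells. Among Ctgf-low libraries it was 62.4 RPM in Dicer KO cells and 36.9 RPM in Dicer WT cells. No direction of the whole cluster can therefore be given for Dicer KO. The 2-fold count of 2 genes also rested on single libraries. Without the Ctgf-high Dicer WT library it was 0, and without the Ctgf-low Dicer KO library it was 4, all lower in Dicer KO.

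Reads in introns, a measure mainly of unspliced transcripts, were found in numbers on 3 of the 7 genes. Gzmf had 459 intronic reads in Dicer KO cells, 333 in Dicer WT cells, 8 in Pbx3 cells, 39 in Sox9 cells and 68 in Tead4 cells, against 284 in vector cells. Gzmd had 328 in Dicer KO cells, 344 in Dicer WT cells, 4 in Pbx3 cells, 11 in Sox9 cells and 22 in Tead4 cells, against 110 in vector cells. Gzmb had 22 in Dicer KO cells, 11 in Dicer WT cells and 3 or fewer in each of the transfected groups. Gzmd and Gzmf were thus at least 2-fold lower in each factor comparison, against a background of 3.59% for Pbx3, 3.94% for Sox9 and 5.16% for Tead4. For Dicer KO 0 of the 7 were 2-fold apart in intronic reads, where the background was 8.99% lower and 6.39% higher. This count became 1 without the Ctgf-high Dicer KO library and 2 without the Ctgf-low Dicer WT library, all higher in Dicer KO cells. The Tead4 count of 2 became 1 without the Ctgf-low vector library.

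The intronic and exonic columns did not describe the same genes in step. Gzmc and Gzme, the members with the most exonic reads (1339 and 1830 over all 12 libraries), had 0 intronic reads in every library. Among 9657 genes with at least 1000 exonic reads, 194 (2.01%) had 0 intronic reads throughout. Gzmf showed the converse, with up to 459 intronic and at most 2 exonic reads per group. The intronic reads of Gzmf followed the exonic reads of its chromosomal neighbour Gzmc: their ratio was 0.879 in Dicer KO, 0.860 in Dicer WT, 0.975 in Sox9, 0.895 in Tead4 and 0.919 in vector cells. In Pbx3 cells it was 1.6, from 8 and 5 reads. Library by library, 11 pairs matched by Ctgf side had ratios of 0.818 to 1.20, and in the other pair Gzmc had 0 reads.

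Gzmd had 1 to 3.64 intronic reads per exonic read, with 3.64 in Dicer KO cells and 1.6 in Dicer WT cells. Its intronic log2 ratio for Dicer KO was -0.07, beside -1.24 in exonic reads. Against the exonic reads of its neighbour Gzme, the intronic reads of Gzmd stood at 0.366 in Dicer KO, 0.569 in Dicer WT, 0.5 in Pbx3, 0.407 in Sox9, 0.489 in Tead4 and 0.444 in vector cells. Which gene models the authors used for introns is not given in the sources used here. Whether reads of a neighbour or paralog were counted as intronic reads of Gzmf or Gzmd was not tested, and the intronic values of these 2 genes cannot be taken as their own unspliced RNA.

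**Figure D3:**
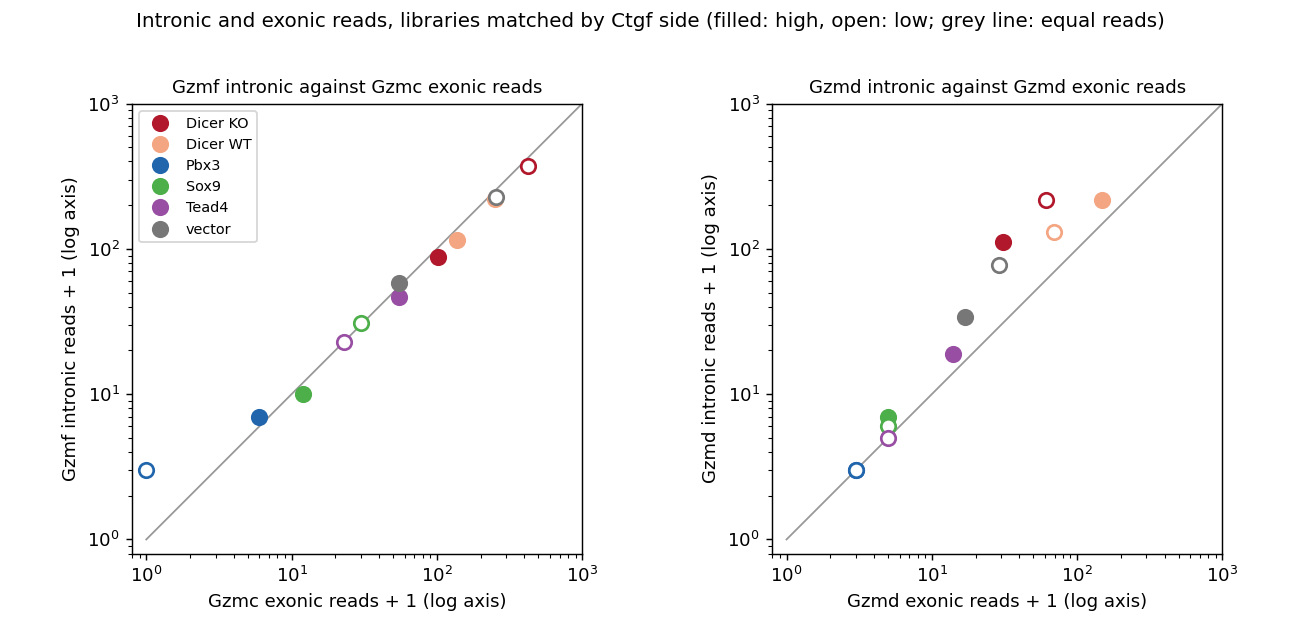
Left, intronic reads of Gzmf against exonic reads of Gzmc; right, intronic reads of Gzmd against exonic reads of Gzmd; 1 point per library, log axes with 1 added, exonic and intronic libraries matched by Ctgf side. On the left the points follow the grey line of equal reads, from 372 against 421 in the Ctgf-low Dicer KO library down to 9 against 11 in the Ctgf-high Sox9 library; on the right no point lies below it.

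The neighbours of the cluster place it within the granzyme and mast cell protease locus. By RefSeq order the genes run Sdr39u1, Cma1, Cma2, Mcpt1, Mcpt2, Mcpt9, Mcpt4, Mcpt8, Ctsg, Gzme, Gzmd, Gzmg, Gzmn, Gzmf, Gzmc, Gzmb, Atp12a, Rnf17 and Cenpj. Ctsg and the chymase genes Cma1, Cma2, Mcpt1, Mcpt2, Mcpt4 and Mcpt9 had between 0 and 3 reads in each group, as did Atp12a, which lies next to Gzmb. Reads were thus concentrated on the granzymes and on 1 gene beside them, Mcpt8, a basophil protease. Cenpj, the first clearly read gene beyond Gzmb, encodes a centriole protein and had 12.8 to 21.3 RPM in all 6 groups. Atp12a, Rnf17 and Cenpj were added for their position after values had been seen.

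Mcpt8 is not 1 of the 7 granzyme genes, but it comes from a list that was chosen with earlier results of these data known. It had 1 and 0 reads in Pbx3 cells, 0 and 0 in Sox9 cells and 18 and 5 in Tead4 cells, against 22 and 33 in vector cells. Both libraries of each factor lay below both vector libraries. In the authors' deposited table the adjusted p was 0.00654 for Pbx3 (log2 ratio -5.86), 0.000875 for Sox9 and 0.716 for Tead4 (log2 ratio -1.32). Against a floor of 3 reads over the group, Mcpt8 was at least 13.0-fold lower in Sox9 cells. Its mean was under the minimum for limma here, and at lower minimums limma called it for Sox9 but not for Pbx3.

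In Dicer KO cells Mcpt8 had 50 and 91 reads, against 35 and 4 in Dicer WT cells, with an adjusted p of 0.301 in the authors' deposited table (log2 ratio 1.90). In intronic reads it had 21 in Dicer KO cells and 0 in Dicer WT cells, at least 6.94-fold higher, with an adjusted p of 0.0339 in the authors' deposited table. Both Dicer KO libraries were thus above both WT libraries for Mcpt8, as for Gzmb at the other end of the cluster.

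On the far side of the chymases, Sdr39u1, which encodes a short-chain dehydrogenase family protein, had 0 and 1 reads in Dicer KO cells, against 88 and 70 in Dicer WT cells. The authors' deposited table gives it a log2 ratio of -7.28 and an adjusted p of 1.07e-12. It had 32 to 121 reads in each transfected group, and in the authors' deposited table its adjusted p was 0.549 for Tead4 and 1 for Pbx3 and Sox9. Ripk3, a kinase of necroptosis on the same chromosome, fell by 0.83 ± 0.16 in Dicer KO cells (limma log2 fold change ± SE, 2 libraries per group, adjusted p = 0.0307). Of the list of 14 flanking genes, Stxbp6 and Nova1 lie on chromosome 12 and are not flanking. Of the 13 measured genes 4 could be tested, with 1 lower and 0 higher in Dicer KO cells. Limma called 16.6% of all exonic genes in that comparison.

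**Figure D4:**
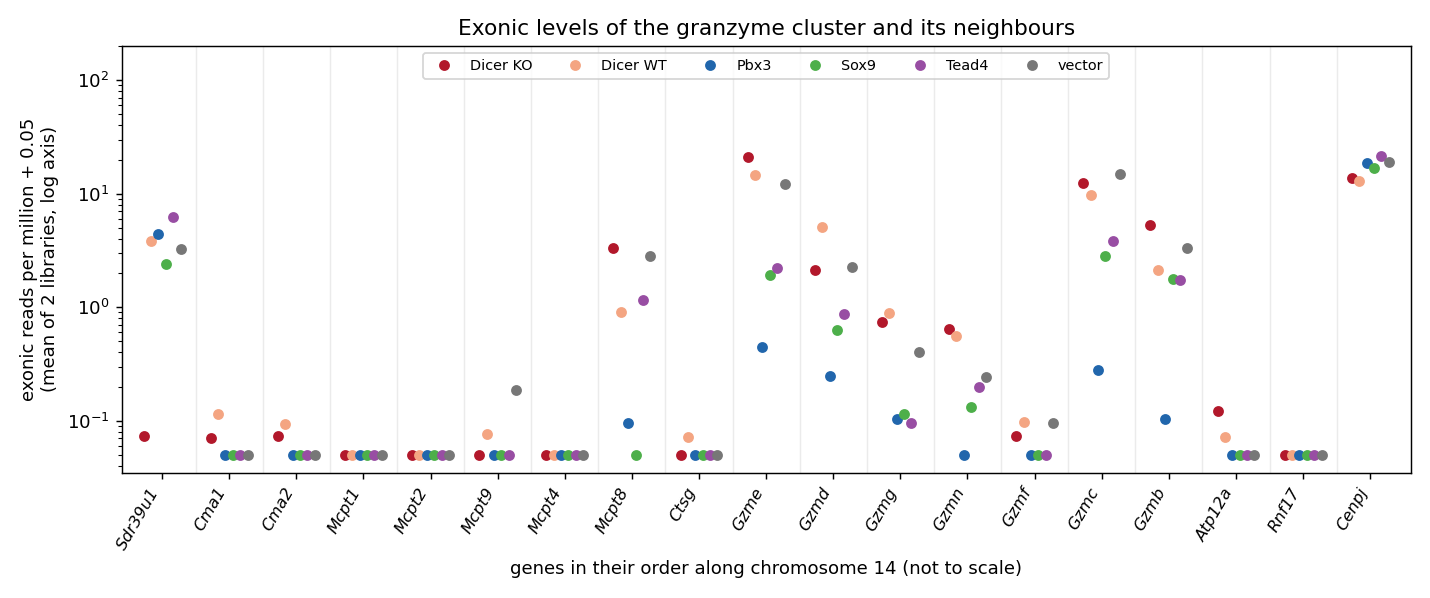
Mean exonic RPM plus 0.05 (log axis) of the granzyme genes and their neighbours in order along chromosome 14, 1 point per group. In Pbx3 cells Gzme, Gzmd, Gzmc, Gzmb and Mcpt8 lie between 0.0462 and 0.398 before the 0.05 is added, while Sdr39u1 and Cenpj at the ends stay at 4.36 and 18.5; in Dicer KO cells Sdr39u1 is at 0.0241.

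Of the 3 granzyme genes outside the cluster, Gzmm had the most reads. Gzma, the tryptase of chromosome 13, had 0 reads in every library. Gzmk, which lies beside it, had 0 reads in Dicer KO cells against 32 in Dicer WT cells, at least 12.1-fold lower by the floor of 3 reads, but 29 of the WT reads were in 1 library and the adjusted p in the authors' deposited table was 0.392. It had 3 reads in Pbx3 cells, 2 in Sox9 cells and 4 in Tead4 cells, against 10 in vector cells. Gzmm had 67 reads in Dicer KO cells against 84 in Dicer WT cells, and 44 in Pbx3 cells, 16 in Sox9 cells and 23 in Tead4 cells against 36 in vector cells. Both Sox9 and both Tead4 libraries lay below both vector libraries for Gzmm, with log2 ratios of -0.67 and -0.65. The same held for 20.4% and 22.1% of all genes with reads. Gzmm did not pass in the authors' deposited table for Sox9 or Tead4. The Pbx3 libraries lay on both sides of the vector libraries for Gzmm. How these genes differ from the cluster was not tested.

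Over the 12 libraries, the genes outside the cluster whose log2 RPM was most like that of Gzme, among 9583 genes, were Mgst1 (Pearson r = 0.90), Elmod2 (0.88), Mkrn2 (0.88), Retsat (0.88) and M6pr (0.87). Within the cluster r with Gzme was 0.91 for Gzmc, 0.90 for Gzmg, 0.88 for Gzmd, 0.83 for Gzmb, 0.81 for Gzmn and 0.74 for Gzmf, and it was 0.76 for Mcpt8. The value for Gzmf rests on 0 or 1 reads in each library. Reads shared between near-identical members may enter the values for Gzmd and Gzmg, which was not tested. Mgst1, a microsomal glutathione transferase, was at 94.9 and 170.8 RPM in Dicer KO cells and 78.5 and 196.7 RPM in Dicer WT cells. It was at 10.1 and 21.2 RPM in Pbx3 cells, 16.8 and 27.0 RPM in Sox9 cells and 11.8 and 27.8 RPM in Tead4 cells, against 47.6 and 80.7 RPM in vector cells. The strongest opposite patterns were those of Tspan15, a tetraspanin (r = -0.93), and Hnrnpa1, an RNA-binding protein (r = -0.90). Libraries of a group and the 3 factor groups are not independent points, so these values describe the pattern only.

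Most markers of the cells known to make granzymes had few or 0 reads, with Lck as an exception. Of 10 T cell markers, Cd3e, Cd3g, Cd8a, Cd4 and Cd2 had 0 reads in all libraries. Of 7 NK cell markers, Ncr1, Klrb1c, Klrk1 and Nkg7 had 0 reads, and the list summed to at most 0.276 RPM in any library. Of 7 mast cell markers, Cpa3, Fcer1a, Ms4a2 and Tpsb2 had 0 reads, and of 8 trophoblast markers Tpbpa, Gcm1, Hand1 and Cdx2 had 0 reads. Ptprc, which encodes the leukocyte surface protein CD45, had 1 read over all 12 libraries, as had Prf1, which encodes perforin. The stromal list summed to 6653 to 12545 RPM per library, with Thy1, an MSC surface marker, at 0 reads. Markers of leukocytes in general, 5 genes with Ptprc among them, summed to 0.917 to 2.77 RPM per library. The T cell list was higher in Dicer KO cells, at 4.85 to 5.70 RPM against 1.42 to 1.94 RPM in Dicer WT cells, almost all of it Lck, a Src-family kinase, which rose by 1.77 ± 0.35 (limma, adjusted p = 0.0302). Lck was also at 3.97 and 4.16 RPM in Pbx3 cells, against 2.45 and 2.27 RPM in vector cells. Its part in the granzyme values was not tested.

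Genes that load, trim and release granzymes were read in Dicer KO against Dicer WT, where 16.6% of all exonic genes tested by limma were called. Of 16 measured, 11 could be tested, of which 3 rose, 2 fell and 6 did not pass. Stxbp2, which primes granules for fusion, rose by 1.87 ± 0.18 (limma adjusted p = 0.00589). The lysosomal protease gene Ctsl rose by 1.09 ± 0.14 and Igf2r, a mannose 6-phosphate receptor, by 1.12 ± 0.20. Ctsh, which encodes the aminopeptidase cathepsin H, fell by 2.90 ± 0.20, and Rab27a, which docks granules, by 1.36 ± 0.33 (limma adjusted p = 0.00356 and 0.0496). Ctsc, the granzyme-trimming protease, rose by 1.93 ± 0.19 in intronic reads (limma adjusted p = 0.011), where 6.51% of genes were called. In exonic reads Ctsc did not pass, at 0.22 ± 0.20 (limma adjusted p = 0.479).

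Serpinb9 encodes the intracellular inhibitor of granzyme B. It had 967 and 706 exonic reads in Dicer KO cells against 238 and 206 in Dicer WT cells, and rose by 1.82 ± 0.18 (limma adjusted p = 0.00592). It was the 1 call among 3 inhibitors that could be tested, of 11 measured, where 16.6% of all exonic genes were called. Its low-level relatives had more reads in Dicer KO cells as well: Serpinb9c had 126 against 8 in Dicer WT cells, Serpinb9e 64 against 2, Serpinb9f 30 against 1, and Serpinb9g 26 against 0. In the authors' deposited table the adjusted p was 0.00562 for Serpinb9c, 0.000582 for Serpinb9e, 0.0456 for Serpinb9f and 0.0327 for Serpinb9g. Serpinb9b, with 20 reads against 4, and Serpinb9d, with 35 against 10, did not pass there (adjusted p = 0.477 and 0.509). These genes are near copies of one another, and reads may be shared among them too. Serpinb6a, another member of the list, had 7548 and 5113 reads in Dicer KO cells, 7823 and 4792 in Dicer WT cells, and an adjusted p of 1 in the authors' deposited table. Serpina3n, also an inhibitor on the list, went the other way, with 10 reads in Dicer KO cells against 74 in Dicer WT cells (log2 ratio -2.97, adjusted p = 0.00448 in the authors' deposited table).

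Among known granzyme B substrates 1 of 8 tested passed in Dicer KO cells, where limma called 16.6% of all exonic genes. Such a count is near that share, so nothing is read from it about substrates. The gene was Dffa, the inhibitor subunit of a caspase-activated DNase, which rose by 0.79 ± 0.16 (limma adjusted p = 0.0344). Among 8 tested regulators known in lymphocytes, against the same 16.6%, Id2 rose by 1.58 ± 0.18 and Runx2 fell by 0.85 ± 0.19 (limma adjusted p = 0.00774 and 0.0413). In intronic reads, where 6.51% of all genes were called, Id2 rose and Runx3 fell of 7 tested, Runx3 by 1.42 ± 0.17 (limma adjusted p = 0.0161). Tbx21, Il2ra and Il21r, which encode a lymphocyte T-box factor and cytokine receptors, had 0 reads in every library. Of the stromal list, 3 of 9 tested, Col1a1, Col1a2 and Col3a1, passed as lower in Dicer KO cells, against 16.6% of all exonic genes called in either direction. Col1a1, a collagen I chain, fell by 2.31 ± 0.18 (limma adjusted p = 0.0046).

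In the factor comparisons, without a block, almost none of the listed genes passed. Of 39 exonic genes tested in each, limma called 0 for Pbx3, 0 for Sox9 and 0 for Tead4, where 3, 12 and 11 had an unadjusted p under 0.05. Over all genes limma called 0.0102% for Pbx3, 0.547% for Sox9 and 0.143% for Tead4, so few genes of any kind passed. With the Ctgf side of each library as a block, added after seeing the data, limma called 7 of the 39 for Pbx3, where 6.07% of all genes were called, 12 for Sox9 (18.5%) and 7 for Tead4 (8.75%). The same block gave 25 of 44 listed genes for Dicer KO, where 47.2% of all genes were called. The authors' deposited table called Mcpt8 alone of the lists for Pbx3, Mcpt8, Igf2r, Fn1 and Col1a1 for Sox9, and Stxbp2 for Tead4. In intronic reads limma called 0 of 33 listed genes for Pbx3 and 0 of 33 for Tead4, with 3 and 7 at an unadjusted p under 0.05 and 0 and 0 in the authors' deposited table. For Sox9 it called 1 of 31, Col3a1, which rose by 2.23 ± 0.43 (limma adjusted p = 0.0448), where 1.99% of all intronic genes were called, beside 0% for Pbx3 and 1.61% for Tead4. With the block the intronic calls were 10 of 33 for Pbx3, 12 of 31 for Sox9 and 10 of 33 for Tead4, against 7.28%, 18.6% and 16.2% of all genes. For Dicer KO they were 21 of 40, against 30.5%. The block was drawn from the main difference between these same libraries, so its calls are no separate evidence.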

How the data were processed

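The submitters' processing notes name Bowtie2, the mm9 build and DESeq 1.10.1. The signal columns deposited by the authors hold exonic or intronic read counts after division by size factors, as the mean of a group's libraries. The authors' log2 columns give the plain ratio of these means, without pseudocount, and the deposited p-value columns hold DESeq's test and its adjusted value. The annotation, read length, use of strand and treatment of shared reads were not given in the sources used here.

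Whole reads of 2 libraries per group were recovered from every mean (unique for 100% of genes, tolerance 1e-09; the step was tested on simulated data), and the vector reads of the 3 factor tables differed for 0 genes. Library 1 has the larger size factor, and library numbers pair nothing. No column of values was left without a group (0). Levels are reads per 1000000 exonic or intronic gene reads. Exonic and intronic libraries were matched by their shared direction of difference, found without the granzyme genes. Ratios use group means plus a pseudocount of 1, and 2-fold is the size rule. Genes outside the cluster were tested with limma 3.58.1 in R 4.3.3, mean-variance trend, log2 of normalised counts plus 1, mean of at least 50, 2 libraries against 2, Benjamini-Hochberg over all genes fitted, threshold 0.05. The fit was tested on simulated data. These p-values measure the spread between the recovered libraries, which may be technical. Counting intervals are exact for ratios and Wilson for shares, at 95%.

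All granzyme genes are named; further names are listed genes past limma, up to 4 per list and comparison, markers at or near 0, and the 5 most and 2 least like Gzme. Genes named from the authors' table and the Serpinb9 relatives were picked with their values in view. The members and lists were chosen with earlier results of these data known. Alternatives were other pseudocounts and minimums, levels per 1000000 reads, and each library left out. A limma fit with the Ctgf side as a block was added after seeing the data.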

Additional observations from a re-analysis of the deposited data

How the results depend on the processing

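No paired analysis was possible because neither the labels nor the columns number the libraries. With the Ctgf side as a block, a pairing found from these data and not from the labels and chosen after seeing them, listed genes called in exonic reads were 25 for Dicer KO (all 14 calls without it included), 7 each for Pbx3 and Tead4 and 12 for Sox9. In intronic reads they were 21 for Dicer KO, 12 for Sox9 and 10 each for the other factors. Each of these 8 counts was above the one without a block. The block takes out the main difference between the same libraries that defined it, so a rise in calls was built in and is no support. Of 86 values under other pseudocounts, minimums and scalings, 75 stayed within 1.5 times the count, 1 SD of the level or on the same side of the threshold. These include the counts of 0 listed genes called for Pbx3 and Tead4, which stayed 0 in every such setting. Few genes of any kind passed there, so those values show little about stability. Exonic counts of granzyme genes at least 2-fold apart did not move under any pseudocount or scaling by more than that. With 1 library left out they were 0 to 4 for Dicer KO, 6 to 6 for Pbx3, 4 to 5 for Sox9 and 3 to 5 for Tead4, and in intronic reads 0 to 2, 2 to 3, 2 to 3 and 1 to 3. Calls among listed genes were less stable. For Sox9 in exonic reads the 0 calls became 3 with a minimum mean of 10, 4 with no minimum, and 1 with a pseudocount of 0.5, with a pseudocount of 5 or with RPM scaling. For Sox9 in intronic reads the 1 call became 2 with a minimum mean of 200 or none, and 0 with RPM scaling. For Dicer KO the 8 intronic calls became 5 with a minimum mean of 200. With 1 library left out, the exonic calls were 6 to 14 for Dicer KO, 0 to 0 for Pbx3, 1 to 9 for Sox9 and 0 to 16 for Tead4. The intronic calls were then 2 to 8 for Dicer KO, 0 to 1 for Pbx3, 0 to 3 for Sox9 and 0 to 7 for Tead4. The most calls for Sox9 and Tead4 came without vector library 1, the Ctgf-low one, and the lone library is then assumed to vary like the other group. Mcpt8 had a limma adjusted p of 0.877 for Pbx3 (log2 fold change -4.35) and 0.0495 for Sox9 (-4.58) with a minimum mean of 10, and 0.308 and 0.00369 with none. The cause of these shifts was not tested. Depth limits Gzmf, Gzmg and Gzmn, which had 34 or fewer exonic reads in any group.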
